A study of Mus musculus with 16 samples.

Results

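Solute carriers (SLC proteins) are the largest group of membrane transporters in mammals and were examined here in mouse macrophages given TGF-β1. Members were chosen on measured values: a protein-coding gene whose symbol starts with Slc and a digit, with a mean of at least 2 CPM, the count of a gene scaled to its library total, over all 16 libraries. Glucose, lactate, iron and cystine carriers Slc2a1, Slc2a3, Slc2a6, Slc16a1, Slc16a3, Slc40a1, Slc11a1, Slc11a2 and Slc7a11 were left out by the rule. This gave 174 genes of the 35275 in the count table, and of 368 protein-coding Slc genes. A further 185 such genes were under 2 CPM, 40 of them without a count in any library. The rule works on symbols, so the 174 include 3 genes that are named after a carrier and are no transporters themselves: the scaffold protein gene Slc9a3r1, Slc4a1ap and Slc7a6os.

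Polyadenylated RNA was sequenced from macrophages grown from tibial bone marrow of C57BL/6 mice in 16 libraries, 4 groups of 4. The fl/fl groups carried floxed Smad7 alleles (Smad7 fl/fl), with no Cre named in the labels, and the KO groups carried the same alleles with CAGGCre-ER, a tamoxifen-inducible Cre driven by a promoter active in many tissues, so deletion is not limited to macrophages. Mice of both genotypes received tamoxifen (20 mg/kg for 5 days) at 1 month of age, 2 weeks before the marrow was taken, and no group carried the Cre without floxed Smad7. Marrow cells were grown with serum and CSF-1 and starved of serum for 12 hours, and then spent 4 hours with or without 10 ng/ml of TGF-β1. TGF-β1 is a cytokine that signals through receptor kinases and Smad transcription factors, and Smad7 is an inhibitor of that signalling. The labels do not say whether replicates came from separate mice, so p-values measure the spread between these libraries, which may be technical. In bulk RNA, fewer cells that express a gene and less RNA per cell cannot be told apart.

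Library totals ran from 16865591 to 23741079 counts, of which the 174 genes took 1.21% to 1.52%. Of 8 macrophage markers looked up, the 7 present in the count table summed to 6771 to 9381 CPM, and Mrc1 was the one of them called with TGF-β1 in fl/fl cells (log2 fold change -0.54, adjusted p = 0.00834). Of 11 lists for other cell types, megakaryocyte markers, led by Pf4, summed to 38.7 to 148 CPM, endothelial markers to 5.86 to 22.2, osteoclast markers to 7.84 to 18.1 and neutrophil markers to 4.22 to 15.96 CPM. The 7 other lists reached at most 7.98 CPM, and T and NK cell markers at most 0.382 CPM. Adipocyte markers, led by Fabp4, summed to 1.78 to 2.99 CPM in fl/fl untreated and to 0.521 to 1.27 CPM in fl/fl TGF-β1 libraries, and Fabp4 was the one gene of these 11 lists that passed there (log2 fold change -1.49, adjusted p = 0.0311). The part of such cells in the results below was not tested. Smad7 was at 3.89 to 6.03 CPM in fl/fl untreated libraries and at 1.28 to 2.00 CPM in KO untreated replicates 2 to 4. With TGF-β1 it stood at 37.3 to 58.3 CPM in fl/fl and at 19.7, 14.8, 10.8 and 10.3 CPM in KO libraries, so KO libraries still held Smad7 reads, and more of them with TGF-β1 than any untreated library. The library labelled KO untreated replicate 1 had 5.87 CPM of Smad7, inside the fl/fl untreated range and below every treated library, which goes against its label, and it also lay with the TGF-β1 libraries. Of the 43 Slc genes called in fl/fl below, 37 were nearer to the KO TGF-β1 mean than to the mean of KO untreated replicates 2 to 4 in that library. Results on KO cells are therefore given with it and without it.

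Solute carriers move amino acids, sugars, ions, metals, vitamins and nucleotides down their gradients or coupled to sodium, protons or a second substrate. The family is divided by sequence into numbered subfamilies, which largely follow the substrate. In macrophages these transporters feed growth and digestion: arginine and glutamine enter at the plasma membrane, the products of digested cargo leave the lysosome, and zinc, iron and copper are moved between the cytosol, vesicles and mitochondria.

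Taken per length of transcript (deposited FPKM), the taurine transporter Slc6a6 was the most abundant at a mean of 323 FPKM over the 16 libraries. It was followed by Slc25a5, a mitochondrial ADP/ATP carrier, at 199, Slc43a2, an amino acid uniporter, at 179.8, and Slc48a1, a haem transporter, at 158 FPKM. The glucose-6-phosphate exchanger Slc37a2 was at 109 and the fatty acid transport protein Slc27a1 at 104 FPKM. These 6 genes were the only ones over 100 FPKM, the median was 9.51, and 12 genes were under 1, down to 0.329 for Slc4a3. The 10 most abundant genes held 37.3% of the summed FPKM. By class, the 27 amino acid and peptide carriers held 29.0% of the sum, the 38 mitochondrial carriers 21.5% and the 22 metal carriers 13.2%. These levels took part in the choice of genes and are a description.

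The genes just inside the limit were Slc25a35 at 2.11, Slc27a3 at 2.36 and Slc4a3 at 2.37 mean CPM, and those just outside were Slc29a2 at 1.95, Slc9b2 at 1.93 and Slc35g1 at 1.91. All 174 genes passed the filter on low counts and were tested, and 167 of them were at 2 CPM or more in the mean of every group. The 7 that were lower in at least 1 group were Slc36a2, Slc7a2, Slc1a4, Slc4a3, Slc27a3, Slc25a33 and Slc25a35. Of these, Slc36a2, Slc7a2 and Slc25a33 had fl/fl untreated means of 1.19, 1.85 and 1.83 CPM and lay above the limit in the treated groups. These 3 reached the set through the treated libraries, which favours a rise, so their rises and adjusted p-values are given as a description. Slc4a3 and Slc27a3 were likewise at 1.93 and 1.99 CPM in fl/fl untreated cells and above the limit in the treated groups. Neither was called in fl/fl cells. Slc25a35 and Slc4a3 were under 2 CPM in the mean of 1 treatment.

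The first comparison asked which of these genes respond to TGF-β1 in cells that keep Smad7. In fl/fl macrophages 22 of the 174 rose and 21 fell at an adjusted p under 0.05 (edgeR's quasi-likelihood test with Benjamini-Hochberg adjustment over 13080 genes, as for every adjusted p below unless another tool is named). Over all tested genes 7.87% rose and 7.61% fell, and over the 10281 tested protein-coding genes at 2 CPM or more 8.91% rose and 8.74% fell. The median log2 fold change of the 174 was -0.02, against -0.01 over all tested genes, and the median absolute change was 0.28 against 0.24. The carriers of amino acids and peptides had 9 genes that rose and none that fell, and the carriers of zinc and other metals had 4 that fell and none that rose. Among the 167 genes at 2 CPM or more in the mean of every group, 19 rose and 21 fell, and among the 24 amino acid carriers of these 7 rose and none fell. Without fl/fl untreated replicate 1 the number that fell was 12 in place of 21, beside 625 of 13358 tested genes in place of 995 of 13080.

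**Figure D1:**
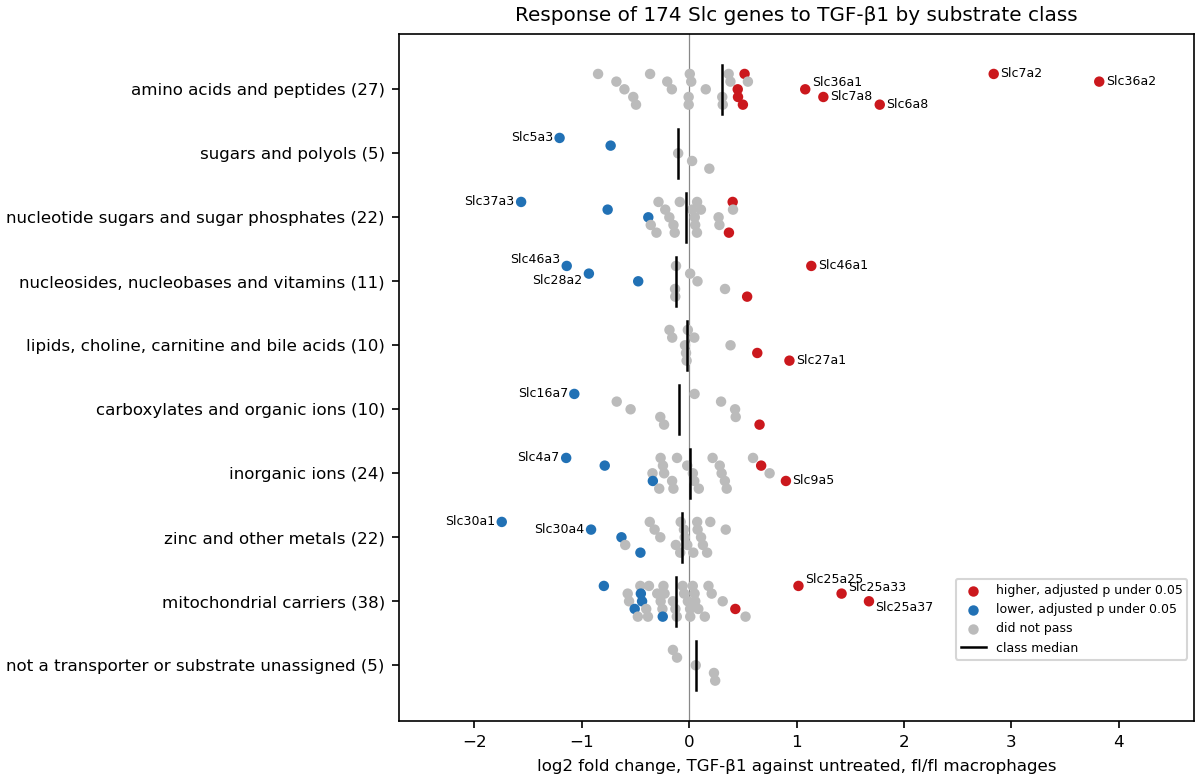
Log2 fold change with TGF-β1 in fl/fl macrophages (x axis) for each of the 174 solute carrier genes, 1 point per gene, in rows by substrate class, with the class median as a line. Coloured points passed an edgeR adjusted p of 0.05; the 22 that rose reach 3.82 (Slc36a2) and the 21 that fell reach -1.75 (Slc30a1).

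The 3 highest fold changes were those of amino acid carriers and a creatine carrier grouped with them. Slc36a2, a proton-coupled carrier of small neutral amino acids, Slc7a2, a cationic amino acid transporter that takes up arginine, and Slc6a8, the creatine transporter, stood highest. The first pair were under 2 CPM in untreated fl/fl cells and entered the set through treated libraries. Slc6a8 had the largest rise among the 167 genes at 2 CPM or more in every group. With them rose Slc7a8, a light chain that exchanges neutral amino acids, its heavy-chain partner Slc3a2, Slc7a7, another light chain of Slc3a2, and the neutral amino acid uniporter Slc43a2. The lysosomal exporters Slc36a1 and Slc38a7 rose as well. The class median was 0.31 on the log2 scale, and 0.23 over its 24 members at 2 CPM or more in every group, against -0.02 over the 174 genes.

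Values by library are listed as replicates 1 to 4 of a group, in CPM on TMM-scaled totals, and gene coordinates are those of the deposited tables (mm10). Slc6a8 (ENSMUSG00000019558, chromosome X, 73673150 to 73682502) stood at 158, 178, 156 and 178 CPM in the fl/fl untreated libraries and at 580.4, 584, 509.8 and 619 CPM in the fl/fl TGF-β1 libraries. All 4 treated libraries were above all 4 untreated ones, and the gene rose 3.42-fold (log2 fold change 1.78 ± 0.30 SE, adjusted p = 0.00139). In KO cells it stood at 411, 128, 127 and 129 CPM in the KO untreated libraries and at 373, 457, 486 and 519.8 CPM in the KO TGF-β1 libraries. The library labelled KO untreated replicate 1 was the one high value among the untreated KO libraries and overlapped the treated range.

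Slc36a2 and Slc36a1 lie near each other on chromosome 11, on opposite strands, Slc36a2 (ENSMUSG00000020264, chromosome 11, 55158470 to 55185077) on the minus strand and Slc36a1 (ENSMUSG00000020261, chromosome 11, 55204350 to 55236330) on the plus strand. Slc36a2 stood at 1.196, 0.874, 1.65 and 1.05 CPM in the fl/fl untreated libraries and at 16.4, 21.3, 18.9 and 11.6 CPM in the fl/fl TGF-β1 libraries. It was close to 1 CPM in every untreated fl/fl library and rose 14.1-fold (log2 fold change 3.82 ± 0.76 SE, adjusted p = 0.00372). KO libraries held it at 10.5, 0.154, 1.24 and 1.05 CPM in the KO untreated libraries and at 18.6, 14.9, 15.5 and 15.9 CPM in the KO TGF-β1 libraries, and replicate 1 of the untreated group was again the high one. Slc36a1, whose protein exports amino acids from lysosomes with protons, stood at 134, 149.7, 154 and 132 CPM in the fl/fl untreated libraries and at 288, 302, 290.4 and 326 CPM in the fl/fl TGF-β1 libraries. The groups did not overlap and the gene rose 2.12-fold (log2 fold change 1.08 ± 0.20 SE, adjusted p = 0.0018). In KO cells it was at 286, 114, 146 and 137 CPM in the KO untreated libraries and at 271, 271, 251 and 256 CPM in the KO TGF-β1 libraries, with untreated replicate 1 above every treated library.

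Slc7a2 (ENSMUSG00000031596, chromosome 8, 40862396 to 40922308) stood at 1.79, 2.62, 1.48 and 1.51 CPM in the fl/fl untreated libraries and at 16.7, 15.3, 12.9 and 7.66 CPM in the fl/fl TGF-β1 libraries, and it rose 7.14-fold (log2 fold change 2.84 ± 0.51 SE, adjusted p = 0.00186). Its treated libraries were all higher, with replicate 4 the lowest of them. In the KO groups, Slc7a2 was at 7.64, 2.62, 0.974 and 0.945 CPM in the KO untreated libraries and at 7.69, 11.2, 8.35 and 10.2 CPM in the KO TGF-β1 libraries. Slc7a8 went from 127 ± 7.27 to 303 ± 21.6 CPM (SD, n = 4), a rise of 2.38-fold (log2 fold change 1.25 ± 0.21 SE, adjusted p = 0.00114). Its partner Slc3a2 went from 125 ± 10.03 to 172 ± 14.9 CPM (SD, n = 4) and rose 1.37-fold (log2 fold change 0.45 ± 0.13 SE, adjusted p = 0.0199). Slc43a2 rose 1.41-fold (log2 fold change 0.50 ± 0.13 SE, adjusted p = 0.0116) from 1113 ± 42.6 CPM (SD, n = 4), so the third most abundant member changed less than the rare Slc36a2. Slc38a7, which releases glutamine and asparagine from lysosomes, rose 1.43-fold (log2 fold change 0.52 ± 0.12 SE, adjusted p = 0.00719), and Slc7a7 rose 1.37-fold (log2 fold change 0.45 ± 0.14 SE, adjusted p = 0.0411). The call on Slc7a7 was made in 7 of 16 fits that each left out 1 library. Slc7a7 also overlaps the more abundant Oxa1l on the other strand by 226 bases, and the strand of the counting is not stated, so its value is uncertain.

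The remaining 18 amino acid carriers passed in neither direction in fl/fl cells. Among these, Slc6a6 stood at 2114 ± 102 CPM untreated and 2142 ± 86.4 CPM with TGF-β1 (SD, n = 4). Slc7a5, the other large neutral amino acid light chain of Slc3a2, did not pass (log2 fold change -0.68 ± 0.23 SE, adjusted p = 0.0548), nor did the cationic carrier Slc7a1 (log2 fold change -0.52 ± 0.26 SE, adjusted p = 0.217), both below 0 while the related Slc7a8 and Slc7a2 rose. In the fit without the library labelled KO untreated replicate 1, Slc7a5 (adjusted p = 0.0447) and the aromatic amino acid carrier Slc16a10 (adjusted p = 0.0226) fell in fl/fl cells, so the class then had 10 that rose and 2 that fell. The uptake carriers Slc1a5 and Slc38a2 for glutamine and other neutral amino acids had log2 fold changes of -0.005 ± 0.12 and 0.15 ± 0.22 (SE).

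**Figure D2:**
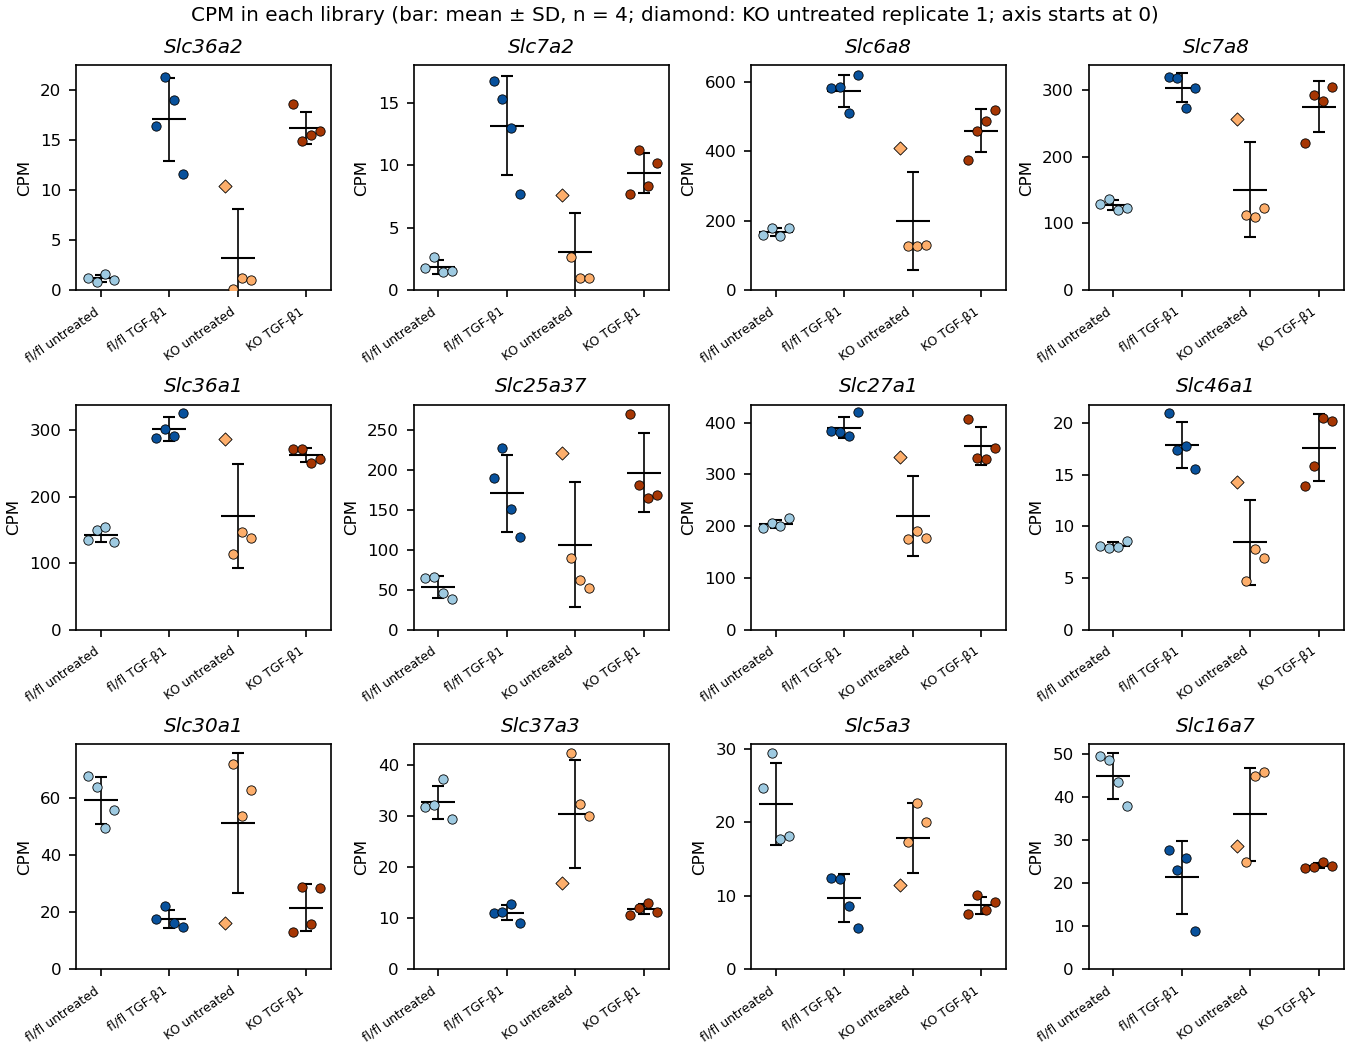
CPM in each of the 16 libraries (points; diamonds mark the library labelled KO untreated replicate 1), with group mean and SD (n = 4) as bar and whisker, for 12 members with large changes. The y axes start at 0, where the whiskers of Slc36a2 and Slc7a2 are cut; treated fl/fl libraries lie apart from untreated ones in each panel, and the diamond lies with or near the treated KO libraries.

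The metal carriers that changed all fell, and all of them were zinc carriers. Most genes of this class, called or not, belong to the zinc carrier subfamilies Slc30 and Slc39. Slc30a1, the zinc exporter of the plasma membrane, fell most of the 174 genes. Slc30a4 and Slc30a5, which load zinc into vesicles and the secretory pathway, and the zinc importer Slc39a6 fell too. None of the other 18 metal carriers passed, among them the abundant zinc importer Slc39a1 (log2 fold change -0.08 ± 0.11 SE, adjusted p = 0.688) and the haem carrier Slc48a1 (log2 fold change -0.27 ± 0.14 SE, adjusted p = 0.217).

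Slc30a1 (ENSMUSG00000037434, chromosome 1, 191906767 to 191913247) stood at 67.7, 63.8, 49.4 and 55.9 CPM in the fl/fl untreated libraries and at 17.7, 22.2, 16.01 and 14.6 CPM in the fl/fl TGF-β1 libraries. All treated libraries were below all untreated ones, and the gene fell 3.35-fold (log2 fold change -1.75 ± 0.36 SE, adjusted p = 0.00395). In KO cells it stood at 16.2, 71.96, 53.6 and 62.8 CPM in the KO untreated libraries and at 13.02, 28.8, 15.9 and 28.5 CPM in the KO TGF-β1 libraries, with untreated replicate 1 inside the treated range. Slc30a4 stood at 32.4, 30.6, 26.96 and 26.1 CPM in the fl/fl untreated libraries and at 19.1, 20.5, 14.96 and 7.04 CPM in the fl/fl TGF-β1 libraries. It fell 1.88-fold (log2 fold change -0.91 ± 0.24 SE, adjusted p = 0.0164), with replicate 4 of the treated group far below the other 3, and the log2 fold change without that library was -0.65 (adjusted p = 0.0195). Slc39a6 fell 1.55-fold (log2 fold change -0.63 ± 0.14 SE, adjusted p = 0.0048) and Slc30a5 1.37-fold (log2 fold change -0.45 ± 0.11 SE, adjusted p = 0.00823).

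Zinc-loaded MTF1 binds metal response elements in promoters of zinc genes, of which Slc30a1 is a textbook target. Its promoter window from RefSeq (250 bases before to 50 after the start, GRCm38.p6, chr1:191906531-191906830, plus strand) is shown because it is the largest decrease and holds 2 copies of the core TGCACNC or TGCGCNC, which are in capitals and read on the opposite strand.
Slc30a1: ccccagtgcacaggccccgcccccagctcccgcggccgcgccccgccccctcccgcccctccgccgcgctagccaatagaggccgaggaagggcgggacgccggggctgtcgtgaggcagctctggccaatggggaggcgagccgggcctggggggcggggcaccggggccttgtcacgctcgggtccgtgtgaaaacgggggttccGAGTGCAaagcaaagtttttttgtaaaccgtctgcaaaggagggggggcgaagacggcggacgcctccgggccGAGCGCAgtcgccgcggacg
Such a core on either strand was found in 25.7% of 32851 RefSeq promoters and in 48 of the 132 members with a promoter in that table (36.4%), so its presence is common. Among members called in fl/fl cells it was in 5 of 16 that fell (31.25%) and in 3 of 16 that rose (18.75%). Among 3 tested genes of the zinc response, none passed in fl/fl cells: the metallothionein Mt1 had a log2 fold change of -0.38 (adjusted p = 0.591), Mt2 of -1.23 (adjusted p = 0.203) and Mtf1 of 0.16 (adjusted p = 0.37). In KO cells without replicate 1 of the untreated group Mt1 fell by 1.05 (adjusted p = 0.0288) and Mt2 by 1.88 (adjusted p = 0.0155) on the log2 scale. With all libraries neither passed in KO cells, at -0.83 (adjusted p = 0.287) for Mt1 and -1.61 (adjusted p = 0.118) for Mt2. The KO untreated libraries spread widely, from 28.5 to 146 CPM for Mt1 and from 1.67 to 14.3 CPM for Mt2, and replicate 1 was the lowest in both.

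Of the 38 mitochondrial carriers 4 rose and 5 fell, and of the 36 at 2 CPM or more in every group 3 rose and 5 fell. The iron importer Slc25a37 (mitoferrin-1), the pyrimidine nucleotide carrier Slc25a33 and the ATP-Mg/phosphate carrier Slc25a25 rose, and so did Slc25a30. The ATP-Mg/phosphate carrier Slc25a24, the pyrimidine nucleotide carrier Slc25a36, the aspartate/glutamate carrier Slc25a12, Slc25a16 and the NAD carrier Slc25a51 fell. Thus Slc25a25 and Slc25a24, which share a substrate, moved in opposite directions. So did Slc25a33 and Slc25a36, though Slc25a33 entered the set through treated libraries.

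Slc25a37 (ENSMUSG00000034248, chromosome 14, 69241848 to 69285112) stood at 65.3, 65.6, 45.6 and 37.9 CPM in the fl/fl untreated libraries and at 189.6, 227, 151 and 116 CPM in the fl/fl TGF-β1 libraries. The groups did not overlap, though the spread within each was wide, and the gene rose 3.19-fold (log2 fold change 1.67 ± 0.39 SE, adjusted p = 0.00873). In KO macrophages, Slc25a37 stood at 222, 89.7, 61.99 and 52.8 CPM in the KO untreated libraries and at 269.7, 182, 165 and 169 CPM in the KO TGF-β1 libraries. Slc25a25 went from 7.06 ± 1.01 to 14.3 ± 2.399 CPM (SD, n = 4) and rose 2.02-fold (log2 fold change 1.02 ± 0.15 SE, adjusted p = 6.97e-04), while Slc25a24 went from 93.9 ± 5.13 to 54.1 ± 6.69 CPM and fell 1.73-fold (log2 fold change -0.79 ± 0.12 SE, adjusted p = 7.48e-04). These 2 carriers moved apart in KO cells as well, at log2 fold changes of 0.65 ± 0.17 (SE, adjusted p = 0.0112) and -0.53 ± 0.11 (SE, adjusted p = 0.00182) without the library labelled KO untreated replicate 1.

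Slc25a33 went from 1.83 ± 0.388 to 4.91 ± 0.68 CPM (SD, n = 4) and rose 2.67-fold (log2 fold change 1.42 ± 0.39 SE, adjusted p = 0.0179). As it entered the set through treated libraries, this is a description. Slc25a30 rose 1.35-fold (log2 fold change 0.43 ± 0.12 SE, adjusted p = 0.0244). Slc25a36 stood at 125, 116, 109.7 and 108 CPM in the fl/fl untreated libraries and at 89.6, 89.4, 89.98 and 53.3 CPM in the fl/fl TGF-β1 libraries and fell 1.42-fold (log2 fold change -0.51 ± 0.14 SE, adjusted p = 0.0202). Its replicate 4 with TGF-β1 was far below the rest, and the log2 fold change without that library was -0.33 (adjusted p = 0.035). The antisense gene Gm16185 overlaps Slc25a36 and the strand of the counting is not stated, so its value is uncertain, as are those of Slc25a25, which overlaps Naif1, and Slc5a3, which lies within Mrps6 on the same strand. Slc25a12 fell 1.36-fold (log2 fold change -0.44 ± 0.12 SE, adjusted p = 0.0223), Slc25a16 1.37-fold (log2 fold change -0.45 ± 0.14 SE, adjusted p = 0.0354) and Slc25a51 1.19-fold (log2 fold change -0.25 ± 0.08 SE, adjusted p = 0.038); none of these 3 was called without replicate 4 of the fl/fl TGF-β1 group. The abundant ADP/ATP carrier Slc25a5 and the phosphate carrier Slc25a3 had log2 fold changes of 0.06 ± 0.11 and 0.03 ± 0.11 (SE). Reads of Slc25a5 may be shared with its close paralog Slc25a4.

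Vitamin and nucleoside carriers went in both directions. The proton-coupled folate transporter Slc46a1 and the ascorbate transporter Slc23a2 rose, while the thiamine transporter Slc19a2, the concentrative nucleoside transporter Slc28a2 and the lysosomal carrier Slc46a3 fell, among 11 genes. Slc46a1 stood at 8.08, 7.86, 7.99 and 8.58 CPM in the fl/fl untreated libraries and at 20.9, 17.3, 17.7 and 15.6 CPM in the fl/fl TGF-β1 libraries, with all treated libraries higher, and rose 2.2-fold (log2 fold change 1.14 ± 0.24 SE, adjusted p = 0.00374). Its subfamily relative Slc46a3 stood at 92.3, 87.2, 97.3 and 90.5 CPM in the fl/fl untreated libraries and at 37.8, 34.1, 48.1 and 46.5 CPM in the fl/fl TGF-β1 libraries, with all treated libraries lower, and fell 2.21-fold (log2 fold change -1.14 ± 0.26 SE, adjusted p = 0.00617). Slc28a2 fell 1.91-fold (log2 fold change -0.93 ± 0.26 SE, adjusted p = 0.0196) and was not called without replicate 4 of the fl/fl TGF-β1 group (adjusted p = 0.0525). Slc23a2 rose 1.45-fold (log2 fold change 0.54 ± 0.16 SE, adjusted p = 0.0242) and Slc19a2 fell 1.39-fold (log2 fold change -0.47 ± 0.13 SE, adjusted p = 0.0215).

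Among 22 carriers of nucleotide sugars and sugar phosphates, Slc37a2 and the CMP-sialic acid carrier Slc35a1 rose, and Slc37a3, Slc37a1 and Slc35c2 fell. The Slc37 subfamily was thus split: Slc37a2, an abundant glucose-6-phosphate exchanger, rose 1.32-fold (log2 fold change 0.41 ± 0.11 SE, adjusted p = 0.0184), Slc37a1 and Slc37a3 fell, and Slc37a4, the transporter of the endoplasmic reticulum, did not pass. Slc37a3 (ENSMUSG00000029924, chromosome 6, 39334770 to 39377707) encodes a lysosomal membrane protein known for releasing bisphosphonate drugs from lysosomes. It stood at 31.8, 32.03, 37.2 and 29.4 CPM in the fl/fl untreated libraries and at 11.04, 11.2, 12.7 and 9.12 CPM in the fl/fl TGF-β1 libraries. Every treated library was below every untreated one, and the gene fell 2.96-fold (log2 fold change -1.57 ± 0.20 SE, adjusted p = 3.73e-04), the smallest adjusted p of the 174. In KO cells it stood at 16.8, 42.3, 32.2 and 29.99 CPM in the KO untreated libraries and at 10.7, 12.02, 13.05 and 11.3 CPM in the KO TGF-β1 libraries, with no overlap even with all libraries kept. Slc37a1 fell 1.69-fold (log2 fold change -0.76 ± 0.22 SE, adjusted p = 0.0259), Slc35c2 1.302-fold (log2 fold change -0.38 ± 0.11 SE, adjusted p = 0.0213), and Slc35a1 rose 1.29-fold (log2 fold change 0.37 ± 0.12 SE, adjusted p = 0.0365). The call on Slc35a1 was made in 7 of the 16 leave-one-out fits, and it was lost under the replicate block, without the filter on low counts and with the fl/fl libraries alone.

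The lysosomal carriers Slc36a1 and Slc37a3, which moved in opposite directions, each have 1 copy of the palindrome TCACGTGA in the RefSeq promoter window (GRCm38.p6). This is the E-box read by the TFEB family, regulators of lysosomal genes. The windows are shown with the palindrome in capitals: Slc36a1 at chr11:55204090-55204389, plus strand, and Slc37a3 at chr6:39377658-39377957, minus strand.
Slc36a1: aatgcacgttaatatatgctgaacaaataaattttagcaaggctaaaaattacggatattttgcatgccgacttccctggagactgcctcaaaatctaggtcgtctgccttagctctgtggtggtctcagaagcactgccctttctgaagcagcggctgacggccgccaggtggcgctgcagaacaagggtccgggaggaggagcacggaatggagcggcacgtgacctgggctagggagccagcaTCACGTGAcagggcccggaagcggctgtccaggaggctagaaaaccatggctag
Slc37a3: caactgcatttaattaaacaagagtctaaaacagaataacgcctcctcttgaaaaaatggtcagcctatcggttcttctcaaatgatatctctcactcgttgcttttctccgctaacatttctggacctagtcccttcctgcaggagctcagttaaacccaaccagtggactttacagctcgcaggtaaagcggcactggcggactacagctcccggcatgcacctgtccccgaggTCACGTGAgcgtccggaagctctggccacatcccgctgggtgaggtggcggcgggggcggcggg
The palindrome is in 0.974% of the 32851 promoters and in 4 of the 132 members' promoters, the other two being Slc25a36 and Slc35a5. The palindrome of Smad binding, GTCTAGAC, was in 0 of the 132, against 0.213% of all promoters, and the amino acid response element TGATGNAA in 3 of 132 (2.27%), against 3.97%. A match is a description of letters and not a binding site.

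Both sugar and polyol carriers that changed fell, of 5. The myo-inositol transporter Slc5a3 stood at 24.6, 29.4, 17.7 and 18.1 CPM in the fl/fl untreated libraries and at 12.4, 12.2, 8.66 and 5.58 CPM in the fl/fl TGF-β1 libraries, with the groups apart, and fell 2.31-fold (log2 fold change -1.21 ± 0.25 SE, adjusted p = 0.00317). Slc45a4 went from 101 ± 6.89 to 61.1 ± 9.17 CPM (SD, n = 4) and fell 1.66-fold (log2 fold change -0.73 ± 0.16 SE, adjusted p = 0.00523). The 3 others were Slc2a8, Slc2a9 and Slc50a1, and the first of these, an intracellular glucose transporter, did not pass (log2 fold change 0.19 ± 0.18 SE, adjusted p = 0.563).

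Of 24 inorganic ion carriers, the sodium/proton exchanger Slc9a5 and the mitochondrial sodium/calcium exchanger Slc8b1 rose, and 3 fell, among them the bicarbonate cotransporter Slc4a7 and the potassium-chloride cotransporter Slc12a7. Slc12a7 stood at 110.0, 110.0, 113 and 109.9 CPM in the fl/fl untreated libraries and at 61.7, 60.3, 58.1 and 76.3 CPM in the fl/fl TGF-β1 libraries, with untreated values close together and no overlap, and fell 1.73-fold (log2 fold change -0.79 ± 0.17 SE, adjusted p = 0.00479). Slc4a7 stood at 169, 157, 75.7 and 81.5 CPM in the fl/fl untreated libraries and at 70.8, 76.7, 42.8 and 27.9 CPM in the fl/fl TGF-β1 libraries. Its groups overlapped, with untreated replicates 3 and 4 near treated replicates 1 and 2. Within each of the 4 same-numbered pairs the treated library was the lower one. Each of the other called genes also changed in 1 direction in all 4 pairs, so this does not set Slc4a7 apart. Slc4a7 fell 2.21-fold (log2 fold change -1.15 ± 0.33 SE, adjusted p = 0.0259). Without replicate 4 of the fl/fl TGF-β1 group its log2 fold change was -0.91 (adjusted p = 0.0867). With the replicate number as a block shared by both genotypes it was -1.15 (adjusted p = 0.0179). Slc8b1 rose 1.59-fold (log2 fold change 0.67 ± 0.16 SE, adjusted p = 0.00878). Slc9a5 rose 1.87-fold (log2 fold change 0.90 ± 0.26 SE, adjusted p = 0.0264) and was not called without that library.

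Among 10 lipid, choline and carnitine carriers, Slc27a1, which takes up long-chain fatty acids, and Slc22a4, a carrier of ergothioneine and organic cations, rose, and none fell. Slc27a1 stood at 197, 205, 199.6 and 215 CPM in the fl/fl untreated libraries and at 384, 382, 375 and 420.4 CPM in the fl/fl TGF-β1 libraries, with the groups far apart, and rose 1.91-fold (log2 fold change 0.93 ± 0.16 SE, adjusted p = 0.00137). Slc22a4 rose 1.55-fold (log2 fold change 0.63 ± 0.17 SE, adjusted p = 0.0176), a value that is uncertain where its close relatives Slc22a5 and Slc22a21 share reads. Among 10 carboxylate and organic ion carriers, Slc16a6 rose 1.58-fold (log2 fold change 0.66 ± 0.20 SE, adjusted p = 0.0326) and Slc16a7 fell 2.099-fold (log2 fold change -1.07 ± 0.26 SE, adjusted p = 0.01). Both belong to the monocarboxylate transporters. Slc16a7 stood at 49.6, 48.6, 43.6 and 37.99 CPM in the fl/fl untreated libraries and at 27.7, 23.04, 25.9 and 9.02 CPM in the fl/fl TGF-β1 libraries, so treated replicate 4 was the lowest by far, and without it the log2 fold change was -0.79 (adjusted p = 0.00795). Slc16a6 overlaps Amz2 and Arsg on the other strand, and its call was made in 9 of the 16 leave-one-out fits, being lost without any 1 fl/fl untreated library and without fl/fl TGF-β1 replicate 1, 3 or 4. None passed of the 3 genes that are no transporters and of Slc35f5 and Slc35f6, whose substrates are unassigned, Slc35f6 being nearest (log2 fold change 0.24 ± 0.10 SE, adjusted p = 0.129).

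Of the 43 calls in fl/fl cells, 22 were made in all 16 leave-one-out fits. The share of all called genes that were kept in these fits is not given here. Slc3a2, Slc22a4, Slc37a2 and Slc30a4 were called in 15 of them, Slc25a33 and Slc25a36 in 14, and Slc25a30, Slc19a2 and Slc35c2 in 13. Slc4a7, Slc25a12 and Slc28a2 were called in 12, Slc9a5 and Slc23a2 in 11, Slc37a1 in 10, Slc25a16 in 8 and Slc25a51 in 6. Leaving out an fl/fl library kept 27 (untreated replicate 1) to 35 of the 43, and leaving out a KO library kept 40 to 43.

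For amino acid, metal and lipid carriers the summed FPKM of the class moved the same way, and it reuses the values behind the calls. In fl/fl cells the amino acid carriers summed to 968 to 1019 FPKM in untreated and 1165 to 1298 in treated libraries, and the metal carriers to 544 to 578 and 449 to 494 FPKM. The lipid carriers summed to 196 to 201 and 247 to 264 FPKM. Of this, Slc27a1 alone held 69.8 to 77.1 FPKM untreated and 128.5 to 148.6 FPKM treated, and the median log2 fold change of the class was -0.02. In KO cells the library labelled untreated replicate 1 had 1164 FPKM of amino acid carriers, above the other 3 at 795 to 960 and inside the treated range of 1120 to 1210. Its metal carrier sum of 440 was below the other 3 at 507 to 553 FPKM. The amino acid and metal sums are led by single genes that were not called, Slc6a6 making up 29.6% and Slc48a1 31.8%, and carry no test. In fl/fl libraries Slc6a6 stood at 320 to 358 FPKM untreated and 324 to 346 FPKM treated. Slc48a1 stood at 175 to 202 and 134 to 187 FPKM, so a gene that did not pass is part of the lower metal sum.

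The second comparison was the same treatment in KO macrophages. With all 16 libraries 5 of the 174 genes rose and 4 fell, beside 2.19% and 2.97% of all tested genes. Slc6a8, Slc7a8, Slc27a1, Slc46a1 and Slc25a25 rose, and Slc37a3, Slc12a7, Slc5a3 and Slc25a24 fell. All 9 had passed in the same direction in fl/fl cells, and how often this held over all tested genes was not computed. Leaving out any 1 of the other 7 KO libraries left 0 to 3 that rose and 1 to 2 that fell. Over all tested genes those fits left 16 to 99 that rose and 61 to 145 that fell. Of the 9, Slc37a3 was the only gene called in each of the 16 leave-one-out fits.

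Without the library labelled KO untreated replicate 1, 25 genes rose and 16 fell in KO cells, beside 8.17% and 6.7% of 13335 tested genes. Among the 167 genes at 2 CPM or more in the mean of every group, 22 rose and 16 fell. In the same fit 25 rose and 25 fell in fl/fl cells, beside 8.71% and 9.02%. Of these, 20 rose and 12 fell in both genotypes: 80% of either list of increases, and 48% of the fl/fl and 75% of the KO decreases. The 20 include Slc36a2 and Slc7a2, which entered the set through treated libraries. The same shares over all tested genes were not computed, so these are a description of the members. None passed in opposite directions. All 9 KO calls and all 43 fl/fl calls of the full set were also made in this fit.

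Amino acid carriers again led the increases in KO cells, with 10 of 27 up and none down without that library, and 8 of the 24 at 2 CPM or more in every group. Slc36a2 and Slc7a2 entered the set through treated libraries here too. Slc36a2 went from 0.815 ± 0.58 CPM (SD, n = 3) to 16.2 ± 1.61 CPM (SD, n = 4). Its log2 fold change was 4.31 ± 0.38 (SE, adjusted p = 1.57e-07), against 2.32 ± 0.69 (SE, adjusted p = 0.0661) with all libraries. Slc7a2 had a log2 fold change of 2.66 ± 0.35 (SE, adjusted p = 2.15e-05) against 1.62 ± 0.48 (SE, adjusted p = 0.0653), and Slc6a8 one of 1.87 ± 0.12 (SE, adjusted p = 1.66e-09) against 1.21 ± 0.30 (SE, adjusted p = 0.032). Slc36a1 had a log2 fold change of 1.01 ± 0.11 (SE, adjusted p = 1.40e-06) against 0.62 ± 0.20 (SE, adjusted p = 0.0791). Of these 4, Slc6a8 passed with and without the library, and the others passed only without it.

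Decreases in KO cells included 2 metal carriers, Slc30a1 and the copper transporter Slc31a2. Slc30a1 had a log2 fold change of -1.51 ± 0.22 (SE, adjusted p = 7.51e-05) without the library and -1.24 ± 0.35 (SE, adjusted p = 0.0533) with it. Slc37a3 had a log2 fold change of -1.54 ± 0.14 (SE, adjusted p = 3.22e-07) and -1.37 ± 0.20 (SE, adjusted p = 0.00689). The other zinc carriers called in fl/fl cells did not pass: Slc30a4 had a log2 fold change of -0.54 ± 0.26 (SE, adjusted p = 0.199), Slc30a5 of -0.24 ± 0.11 (SE, adjusted p = 0.2) and Slc39a6 of -0.30 ± 0.14 (SE, adjusted p = 0.213) without the library. Slc3a2, called in fl/fl cells, had a log2 fold change of 0.21 ± 0.13 (SE, adjusted p = 0.366).

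The fit without the library called 9 genes in KO and not in fl/fl cells. Slc38a6 and Slc38a10 of the amino acid carriers, the lysosomal nucleoside transporter Slc29a3, the aspartate/glutamate carrier Slc25a13 and Slc35f6 rose, and Slc22a23, Slc25a28, Slc25a43 and Slc31a2 fell. Slc25a13 had a log2 fold change of 0.55 ± 0.15 (SE, adjusted p = 0.0186) in KO cells and of 0.18 ± 0.14 (SE, adjusted p = 0.45) in fl/fl cells. Slc25a28, mitoferrin-2, had a log2 fold change of -0.87 ± 0.22 (SE, adjusted p = 0.0105) in KO and -0.05 ± 0.21 (SE, adjusted p = 0.91) in fl/fl cells, and it stood at 15.04, 38.8, 21.4 and 19.1 CPM in the KO untreated libraries, replicate 2 being the highest. Passing in 1 genotype alone is no difference between genotypes, which was tested separately.

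**Figure D3:**
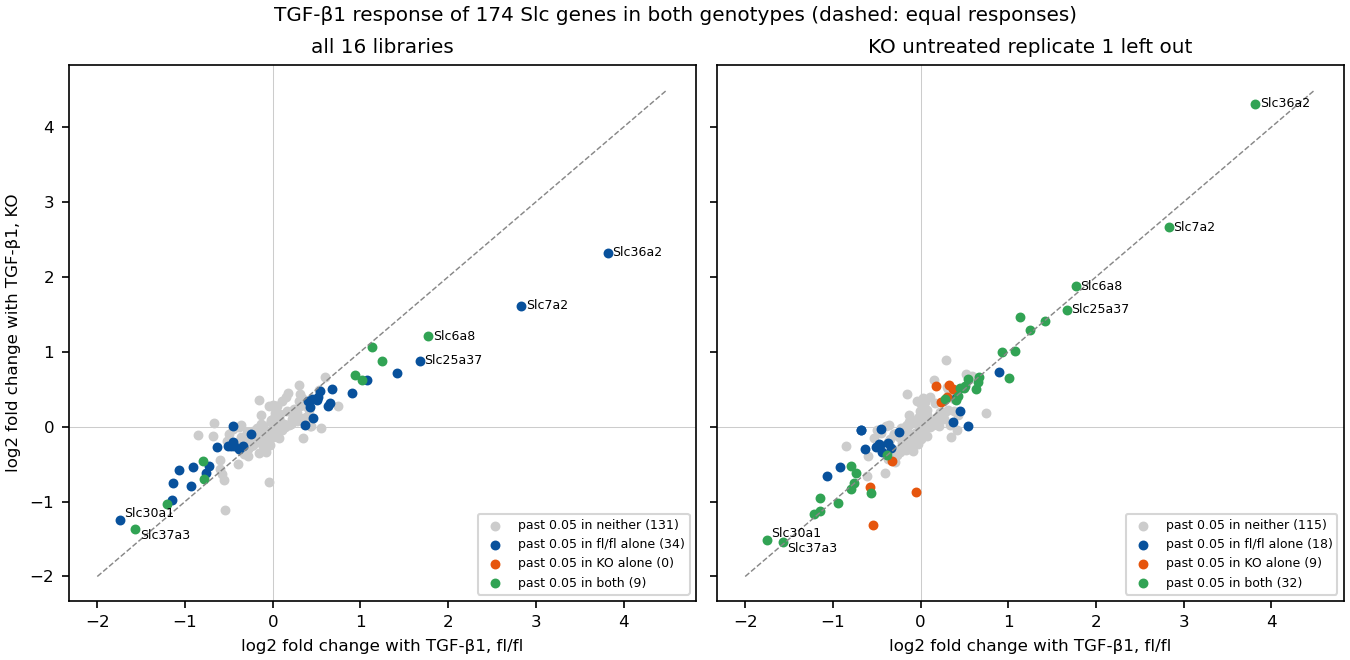
Log2 fold change with TGF-β1 in fl/fl (x axis) and KO macrophages (y axis) for each of the 174 genes, with all libraries and without the library labelled KO untreated replicate 1. Points lie along a rising line in both panels (Pearson r 0.909 and 0.930), and the largest changes move closer to the diagonal in the second.

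Over the 174 genes the fl/fl and KO log2 fold changes had a Pearson r of 0.909 and a Spearman rho of 0.846, and 0.930 and 0.857 without the library. Over all tested genes these were 0.733 and 0.601, then 0.778 and 0.607. Unlike the 174, the tested genes include many under 2 CPM, so the 2 sets of values are not at matched levels. Among the 174 are Slc36a2, Slc7a2 and Slc25a33, which entered the set through treated libraries. The correlations without them were not computed. The points share library scaling and the same 2 sets of libraries, genes are not independent replicates, and the values describe these libraries only.

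The third set of comparisons set KO beside fl/fl macrophages, untreated and treated, and also tested whether their responses to TGF-β1 differed. None of the 174 genes passed in untreated cells, where edgeR called 0.0459% of all tested genes, and 23 had an unadjusted p under 0.05 (13.2%, against 10.9% of all tested genes). None passed with TGF-β1 (0.0382% of all genes, 7 or 4.02% at an unadjusted p under 0.05, against 5.61%). None passed for the difference between responses (0% of all genes, 4 or 2.30% at an unadjusted p under 0.05, against 2.102%). DESeq2 called 2 genes in untreated cells, beside 18 higher and 36 lower of 21712 genes. It called 0 in the other 2 comparisons. There it called 6 higher and 14 lower of all genes with TGF-β1, and 0 and 1 for the difference between responses.

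The 2 genes that DESeq2 called were the zinc importer Slc39a6, lower in KO cells (adjusted p = 0.0185), and the CMP-sialic acid carrier Slc35a1, higher (adjusted p = 0.0313). Slc39a6 stood at 85.5, 99.7, 90.3 and 107 CPM in the fl/fl and at 55.8, 67.9, 64.6 and 63.4 CPM in the KO untreated libraries. The groups did not overlap, and the edgeR log2 difference, KO minus fl/fl, was -0.61 ± 0.14 (SE, adjusted p = 0.203). Among the leave-one-out fits, edgeR called Slc39a6 only without KO TGF-β1 replicate 1 (adjusted p = 0.0169), a library outside this comparison. In the other leave-one-out fits the smallest adjusted p of the 174 genes was 0.107 to 0.494. Slc35a1 stood at 9.99, 9.61, 8.595 and 9.76 CPM in the fl/fl and at 13.9, 13.7, 13.5 and 12.4 CPM in the KO untreated libraries, again without overlap, with an edgeR difference of 0.50 ± 0.11 (SE, adjusted p = 0.212). The lysosomal sialic acid exporter Slc17a5 was nearest after these, at -0.34 ± 0.10 (SE, adjusted p = 0.406). Without the library labelled KO untreated replicate 1, the lowest p-values were those of Slc39a6 at -0.57 ± 0.14 (SE, adjusted p = 0.25), Slc6a8 at -0.41 ± 0.11 (SE, adjusted p = 0.264) and Slc25a28 at 0.81 ± 0.22 (SE, adjusted p = 0.274).

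With TGF-β1 the lowest p-values were those of Slc24a3, Slc25a25 and Slc25a16. Slc24a3, a potassium-dependent sodium/calcium exchanger, stood at 3.22, 4.65, 4.57 and 5.99 CPM in the fl/fl and 1.13, 1.86, 3.32 and 2.91 CPM in the KO libraries, a difference of -0.998 ± 0.31 (SE, adjusted p = 0.875). Slc25a25 differed by -0.45 ± 0.15 (SE, adjusted p = 0.876) and Slc25a16 by 0.36 ± 0.14 (SE, adjusted p = 0.877). For the difference between responses, KO minus fl/fl, the lowest were Slc35f5 at 0.51 ± 0.21 (SE, adjusted p = 0.993), Slc25a16 at 0.46 ± 0.20 (SE, adjusted p = 0.993) and Slc22a15 at 0.73 ± 0.33 (SE, adjusted p = 0.993). For the genes with the largest responses the same difference without the doubted library was 0.50 ± 0.49 (SE, adjusted p = 0.981) for Slc36a2, 0.10 ± 0.15 (SE, adjusted p = 0.981) for Slc6a8 and 0.24 ± 0.31 (SE, adjusted p = 0.981) for Slc30a1. A p-value that misses the threshold does not show that the responses are alike.

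**Figure D4:**
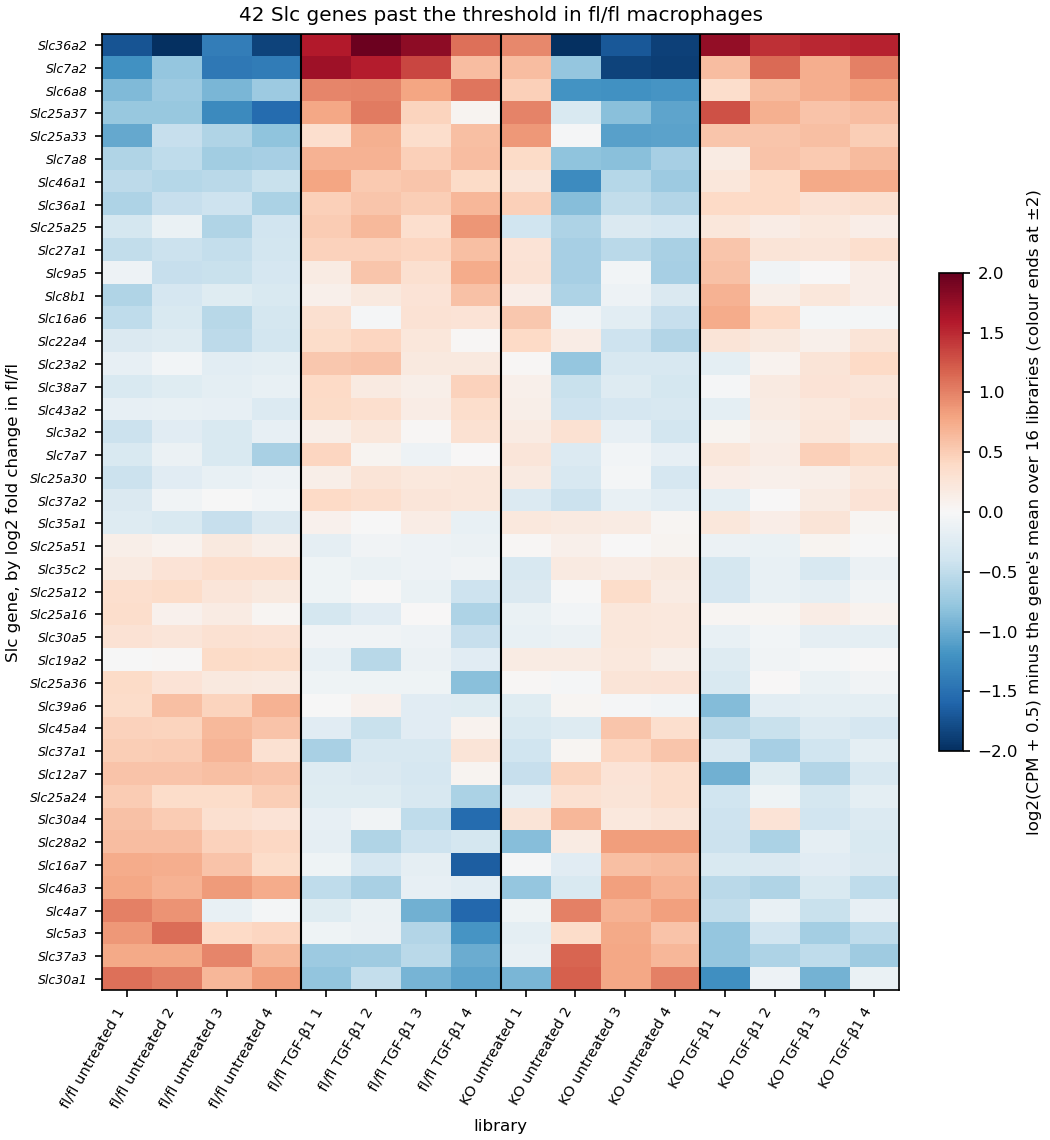
Log2 of CPM plus a pseudocount of 0.5 for 42 of the 43 solute carrier genes called in fl/fl macrophages (rows, ordered by fl/fl log2 fold change) in the 16 libraries (columns), each row relative to its mean over all libraries, with colours ending at -2 and 2. In the column labelled KO untreated replicate 1 most rows have the colour of the treated KO libraries, as 37 of the 43 genes lay nearer to their mean.

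Related genes outside the choice were looked up in lists chosen with these data known, and their counts stand beside 7.87% of all tested genes that rose and 7.61% that fell in fl/fl cells. The lists were not tested as sets. Of 29 tested transporters with symbols of another form, 2 rose in fl/fl cells, Mfsd6 (log2 fold change 0.97, adjusted p = 0.00486) and the organic anion transporter Slco4a1 (0.93, adjusted p = 0.0421), and none fell. Of 12 ion pumps, the plasma membrane calcium pump Atp2b4 rose from 26.6 ± 4.33 to 102 ± 9.10 CPM (SD, n = 4; log2 fold change 1.94, adjusted p = 0.00475). Its relative Atp2b1 fell by 0.74 on the log2 scale (adjusted p = 0.00165).

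Of 18 genes of amino acid sensing at the lysosome, the mTORC1 subunit Rptor (0.96, adjusted p = 0.00167) and Depdc5 (0.43, adjusted p = 0.0277) rose, and Sesn1 fell by 0.86 (adjusted p = 0.0082) on the log2 scale. Of 16 genes of the amino acid starvation response, the asparagine synthetase Asns fell by 0.75 (adjusted p = 0.0193), and its regulator Atf4 was at 99.9 ± 14.1 CPM untreated (SD, n = 4), with a log2 fold change of 0.001 (adjusted p = 0.997).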

How the data were processed

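The authors deposited whole-number read counts per gene and FPKM (fragments per length of gene and library total) for 16 libraries, with gene coordinates, gene types and lengths. Per the submitters' processing notes, the tools were Cufflinks 2.1.1, HTSeq 0.6.1 and TopHat2 2.0.9, and mm10 and GRCm38.p6 stand as builds, with no roles given. The strand and multi-mapping options of the counting are not given in the sources used here. Each deposited FPKM equals the deposited count scaled to gene length and library total, so it served for comparing levels between genes. The labels give 16 libraries, while their extraction protocol speaks of a smaller number.

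Counts were scaled by TMM in edgeR 4.0.16 (R 4.3.3), with 13080 genes left by filterByExpr applied to the 4 groups. One quasi-likelihood fit with robust estimation held all 16 libraries. Contrasts compared treated with untreated cells per genotype, compared the genotypes per treatment, and subtracted one response from the other. P-values were adjusted by Benjamini-Hochberg over all tested genes at a threshold of 0.05. CPM values use TMM-scaled totals, except the mean of at least 2 CPM that chose members, which uses raw totals. At the lowest total of 16865591 counts, 2 CPM is 33.7 counts. Reads carry no molecular identifiers. The scripts were tested on simulated counts.

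The members, substrate classes and other lists were chosen with earlier results of these data known, and 2 genes were moved between classes after their symbols were seen. Named genes were, per class, up to 4 rising and 4 falling members with the largest change in fl/fl and the 2 with the highest FPKM, and per other comparison those that passed or the 3 with the lowest p. Slc7a5, Slc7a1, Slc1a5, Slc38a2, Slc16a10 and Slc37a4 were added after their values were seen, as relatives of called genes. Remaining called members were added to complete the counts, except 1 that is counted but not reported here.

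Alternatives were DESeq2 1.42.0, RLE scaling, no filter, a replicate block, each genotype alone, and leaving out each library. Same-numbered fl/fl libraries deviated together from their group means (r 0.123 to 0.181 in 4 of 4 pairs), which by the set limit of 0.1 pairs them, although a differently numbered pair reached 0.200. In KO cells same-numbered r was 0.0755 to 0.239, and a differently numbered pair reached 0.184. Between genotypes same-numbered r was -0.175 to 0.0216. The replicate block gives each number the same effect in both genotypes, a sharing that these between-genotype values do not show. Promoters came from a RefSeq table (GRCm38.p6), which 132 of 174 members matched.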

Additional observations from a re-analysis of the deposited data

Results flagged for a closer look

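In 43 called genes and 4 groups, 15 of 172 sets of 4 libraries held 1 library set apart from the other 3 by Dixon's criterion for the gap to the nearest value. Chance flags about 1 in 20 such sets. Of these 15, 6 were values of the library labelled KO untreated replicate 1, in CPM: Slc27a1 334, Slc35c2 42.2, Slc36a2 10.5, Slc43a2 1372, Slc6a8 411 and Slc7a8 256. Each of these lay toward the treated KO libraries.

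The other 9 were spread over 6 libraries. In fl/fl cells Slc12a7 was at 113 CPM in untreated replicate 3, Slc16a6 at 26.9 in TGF-β1 replicate 2, and Slc25a36 at 53.3 and Slc30a5 at 61.5 in TGF-β1 replicate 4. In KO cells Slc30a4 was at 34.4 CPM in untreated replicate 2 and at 26.1 in TGF-β1 replicate 2. Slc25a37 was at 269.7, Slc39a6 at 35.9 and Slc8b1 at 230.4 CPM in KO TGF-β1 replicate 1. That library was the lowest of its group for 83 of the 174 genes and the highest for 49. KO untreated replicate 2 was the lowest for 70 and the highest for 49, and fl/fl TGF-β1 replicate 4 the lowest for 65 and the highest for 61.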

How the results depend on the processing

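No called change of a named gene turned its direction under an alternative. In fl/fl cells the calls ranged from 15 to 26 higher and 12 to 25 lower when 1 library was left out, against 22 and 21. Over all tested genes these fits gave 747 to 1162 higher and 625 to 1203 lower. The 12 came without fl/fl untreated replicate 1, and 22 of the 43 genes were called in all 16 such fits. Without fl/fl TGF-β1 replicate 4, 20 of the 22 rising and 15 of the 21 falling genes were still called. The shares of all called genes kept in these fits are not given here.

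In KO cells the calls ranged from 0 to 25 higher and 1 to 16 lower when 1 library was left out, against 5 and 4, the highest values being those without the library labelled KO untreated replicate 1. Over all tested genes these fits gave 16 to 1090 higher and 61 to 894 lower. DESeq2 called 13 higher and 11 lower, beside 506 and 569 of 21712 genes. The 8 KO libraries fitted alone gave 0 and 0, as they did over all 12495 genes tested there. The 7 without the doubted library gave 16 and 15, beside 945 and 885 of 12662 genes. The planned replicate block gave 8 higher and 5 lower, beside 347 and 315 of 13080 genes. A replicate block within genotype, added after seeing the data, gave 10 higher and 7 lower in KO cells, beside 513 and 481 of 13080 genes. In fl/fl cells it lost Slc25a51 and Slc35a1. A replicate block with the doubted library left out gave 22 and 14 in KO cells, beside 970 and 768 of 13335 genes.

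KO against fl/fl in untreated cells gave 2 calls in DESeq2 and 0 to 1 when 1 library was left out. The 1 came without KO TGF-β1 replicate 1, beside 2 higher and 8 lower of 13302 genes. With TGF-β1, and for the difference between responses, edgeR and DESeq2 gave 0 in every fit run. At the lowest library total a gene at 2 CPM rests on 33.7 counts. The median SE of the fl/fl log2 fold change was 0.30 over the 20 members under a mean of 5 CPM and 0.14 over the other 154; the smallest change detectable at either level was not measured.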
